A study of Mus musculus with 12 samples.

Results

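A set of 10 genes that control how glucose enters a cell, is committed to glycolysis or storage, and leaves as lactate was followed in mouse hip cartilage: the glucose transporter genes Slc2a1, Slc2a3 and Slc2a4, the monocarboxylate transporter genes Slc16a1 and Slc16a3, the hexokinase genes Hk1 and Hk2, the bifunctional enzyme genes Pfkfb3 and Pfkfb4, and the muscle glycogen synthase gene Gys1. Every probe that carries one of these symbols in the normalized table or in the non-normalized file was taken. This gave 13 of the 45281 probes of the array. The normalized table of 21004 probes holds 10 of them, for 9 genes, and 2 of those genes, Pfkfb4 and Gys1, stand there under older symbols. The Hk2 probe carries the symbol of an unnamed locus in the non-normalized file. The other 3 probes, among them the only one for Slc16a1, lie outside the normalized table and were undetected on all 12 arrays.

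RNA of femoral head epiphyseal cartilage was hybridized to 12 Illumina mouse BeadChips, 3 for each of 4 groups of C57BL6 mice aged 4 to 6 weeks. WT control and Mapk9 KO control hips were snap-frozen, and WT injured and Mapk9 KO injured hips were frozen 4 h post injury, which was made by avulsion of the femoral epiphysis and followed by culture in medium without serum. Only injured hips were cultured, so injury and culture cannot be told apart. Mapk9 encodes a c-Jun N-terminal kinase, and its allele and the cells in which it is lost are not given in the sources used here. The methods give 6 hips of 3 mice pooled per replicate for the control and injured sets. Nothing states that the Mapk9 KO replicates came from separate animals, and p-values then measure only the spread between these samples.

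Glucose transporters of the SLC2 family carry glucose down its gradient, and hexokinases trap it as glucose 6-phosphate. Enzymes of the PFKFB family set the level of fructose 2,6-bisphosphate, the strongest activator of phosphofructokinase, and glycogen synthase diverts glucose into storage. Cartilage has no blood vessels, and its chondrocytes live at low oxygen, derive most of their energy from glycolysis and export the lactate through proton-linked transporters.

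Levels are given as log2 values after background correction and normalization by the authors, and levels of different probes are not on a shared scale. A probe was called detected on an array when its deposited detection p-value was under 0.05, and the lowest detected value lay between 5.62 and 6.05 on the 12 arrays. A change passed the threshold when it exceeded 2-fold and limma gave it an adjusted p under 0.05, with adjustment over all 21004 probes. Where all 3 arrays of a group were undetected, the change is given as a bound against the lowest detected value, or the probe's own value where that was higher.

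Post injury, the genes of the glucose transporters GLUT1 and GLUT3 and of hexokinase 2 rose in both genotypes, as did 1 of the 2 tested probes of Slc16a3, the gene of the lactate exporter MCT4, and the gene of the insulin-responsive transporter GLUT4 (Slc2a4) fell. The other tested Slc16a3 probe did not pass the threshold in either genotype, and the calls at Slc16a3 and the WT call at Slc2a4 depended on the processing, as given with each gene. In WT, 4 of the 10 probes tested rose and 1 fell, where 7.55% of all probes rose and 7.14% fell. In Mapk9 KO, 5 of 10 rose, with Hk1 as the addition, and 1 fell, where 9.59% and 9.14% of all probes did. The median log2 change of the 10 probes was 0.89 in WT and 1.17 in Mapk9 KO, and that of all probes was -0.02 in both. Without WT control replicate 3, which stood apart from the other WT controls in the muscle and fat genes described below, 1 more fitted change passed in WT, at Gys1, where the remaining controls were undetected.

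**Figure D1:**
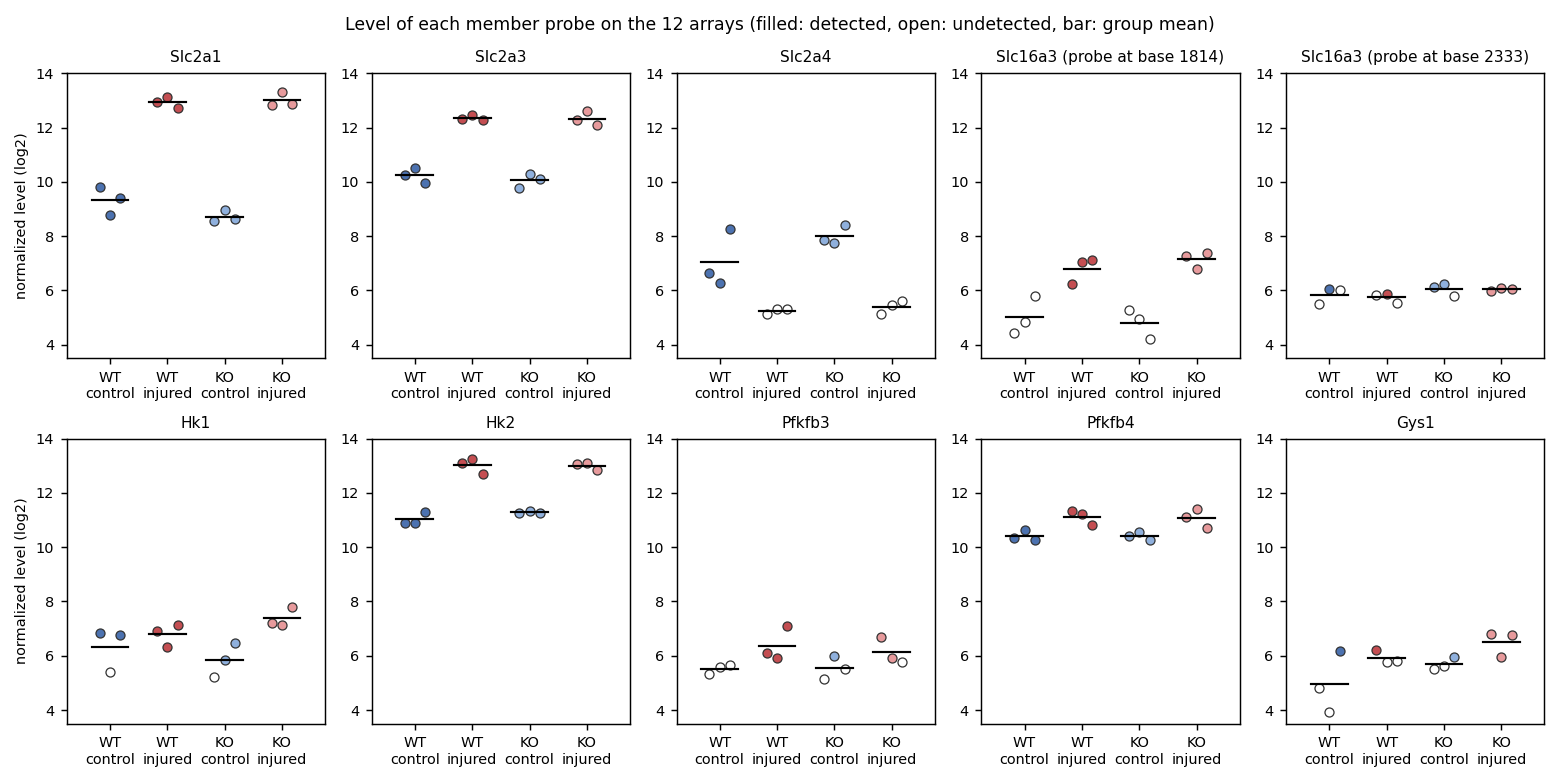
Normalized log2 level (vertical axis) of each of the 10 probes tested on the 3 arrays of each group (horizontal axis). Filled points were detected, open points were not, and bars are group means. Slc2a1, Slc2a3 and Hk2 lie higher on all injured arrays than on any control array, while Slc2a4 is detected on control arrays alone and the Slc16a3 probe at base 1814 on injured arrays alone.

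Slc2a1 encodes GLUT1, the transporter behind basal glucose uptake in many cells, and it showed the largest fitted change of the 10 probes. Its probe starts at base 2343 of the transcript, and the first 30 of its 50 bases are shown, as for every probe below, because they fix which part of the transcript was read. The promoter is shown with the core of the hypoxia response element, ACGTG or GCGTG on either strand, in capitals.
Slc2a1 probe: aggacctcggaggctgagaacttaactgct
Slc2a1 promoter (GRCm38.p6, chr4:119108495-119108744, plus strand): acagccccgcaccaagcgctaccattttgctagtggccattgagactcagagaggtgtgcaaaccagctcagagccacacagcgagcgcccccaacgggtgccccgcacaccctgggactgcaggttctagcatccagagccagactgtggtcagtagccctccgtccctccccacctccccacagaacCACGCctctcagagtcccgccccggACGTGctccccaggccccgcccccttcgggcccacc
The promoter stretches are RefSeq sequence of the 250 bases before the start. In this one, ACGTG begins 36 bases and GCGTG 61 bases before it. The WT control arrays had 9.81, 8.76 and 9.41, and the WT injured arrays 12.93, 13.12 and 12.72. The Mapk9 KO control arrays had 8.56, 8.96 and 8.62, and the Mapk9 KO injured arrays 12.85, 13.31 and 12.86. All 6 injured arrays stood above all 6 control arrays, and the control arrays of WT spread more widely than those of Mapk9 KO. The signals before normalization were 448 to 1245 on the WT control arrays and 6841 to 8570 on the WT injured arrays. The rise was 12.1-fold in WT (log2 change 3.60, standard error 0.27, limma adjusted p = 2.20e-05). In Mapk9 KO it was 19.6-fold (log2 change 4.30, standard error 0.20, limma adjusted p = 1.80e-07). Within pairs of the same replicate number the log2 differences were 3.12, 4.36 and 3.31 in WT and 4.29, 4.35 and 4.25 in Mapk9 KO, so the pairs of WT differed from each other more than those of Mapk9 KO.

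Slc2a3 encodes GLUT3, a transporter of high glucose affinity best known from neurons. It rose in both genotypes.
Slc2a3 probe: actcagattgctatggaaaggggctttgct
It was measured at 10.26, 10.50 and 9.95 on the WT control arrays and at 12.33, 12.47 and 12.26 on the WT injured arrays. The Mapk9 KO control arrays gave 9.77, 10.29 and 10.11, and the Mapk9 KO injured arrays 12.28, 12.60 and 12.08. No injured array overlapped with a control array. The rise was 4.34-fold in WT (log2 change 2.12, standard error 0.21, limma adjusted p = 0.000106) and 4.81-fold in Mapk9 KO (log2 change 2.27, standard error 0.21, limma adjusted p = 1.34e-05). The calls at Slc2a1, Slc2a3 and Hk2 were made under each alternative run, including each array left out in turn, with log2 changes between 3.26 and 3.84 in WT at Slc2a1 and between 1.87 and 2.25 at Slc2a3.

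Slc2a4 encodes GLUT4, which insulin moves to the surface of muscle and fat cells, and it was the member that fell.
Slc2a4 probe: ggaggggtggtccatgtacccctcattccc
The WT control arrays had 6.65, 6.28 and 8.27, and the WT injured arrays 5.14, 5.33 and 5.31. In Mapk9 KO the control arrays had 7.87, 7.76 and 8.41 and the injured arrays 5.14, 5.48 and 5.60. All 6 control arrays were detected and none of the 6 injured arrays was, and WT control replicate 3 stood apart from the other WT control arrays at the level of the Mapk9 KO controls. The fall was at least 2.33-fold in WT (limma adjusted p = 0.0117) and at least 4.45-fold in Mapk9 KO (limma adjusted p = 7.21e-06). The WT bound rested on replicate 3 of the controls, since without that array it was 1.54-fold, below the fold limit, while the fitted change still passed (adjusted p = 0.00456). The WT call was lost without background correction under quantile normalization (log2 change -0.78, adjusted p = 0.0576), with neqc, another normalization, on all probes of the array (log2 change -1.67, adjusted p = 0.103) and with the methods' t-test after Benjamini-Hochberg adjustment (adjusted p = 0.143). It was made in Mapk9 KO under each alternative run.

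Genes that mark skeletal muscle and fat moved with Slc2a4. In bulk RNA, fewer cells of a type and less RNA per cell cannot be told apart. Of 15 skeletal muscle marker genes, 12 fell in WT and 15 in Mapk9 KO, and of 5 adipocyte markers 2 and 4 fell, where 7.15% and 9.54% of all genes, read by their brightest probe, fell. The mean log2 level of the muscle list was 10.84, 10.24 and 12.28 on the WT control arrays, 7.64, 8.60 and 9.41 on the WT injured arrays, 12.22 to 12.58 on the Mapk9 KO control arrays and 8.11 to 9.14 on the Mapk9 KO injured arrays. The adipocyte mean was 7.06, 6.92 and 8.32 on the WT control arrays, 5.65 to 6.00 on the WT injured arrays, 7.51 to 9.53 on the Mapk9 KO control arrays and 5.46 to 5.79 on the Mapk9 KO injured arrays. On WT control replicate 3, Slc2a4 and both list means were higher than on the other WT control arrays. Each of these markers was detected on at least 1 array. On all 12 arrays, 12 of the 15 muscle markers were detected and 1 of the 5 adipocyte markers. Cidec, named after its value was seen, fell in both genotypes from controls detected on 1 of 3 arrays in each. The adipocyte means of the injured arrays lay near the lowest detected values, 5.62 to 6.05. The part of the muscle and fat markers in the fall of Slc2a4 was not tested.

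Against the label of the tissue, 10 chondrocyte marker genes were read, and all of them were detected on all 12 arrays. So were all 9 monocyte and neutrophil and all 6 erythroid markers, and 4 of 5 bone and 4 of 5 endothelial markers, so detection alone did not set chondrocytes apart from other cell types. The chondrocyte mean was 10.68 to 11.46 on the WT control arrays, 12.44 to 12.71 on the WT injured arrays, 10.69 to 11.41 on the Mapk9 KO control arrays and 12.43 to 12.68 on the Mapk9 KO injured arrays. In each genotype 7 of the 10 rose by their brightest probe and none fell by it, where 7.50% of all genes rose in WT and 8.9996% in Mapk9 KO. The median log2 change of this list was 1.22 in WT and 1.45 in Mapk9 KO, and its part in the rises of the transporter and hexokinase genes was not tested. Of the other marker lists, 1 of 9 monocyte and neutrophil genes rose in each genotype and 1 fell in WT and 2 in Mapk9 KO. The mean of that list was 11.39 to 11.80 on the WT control arrays, 11.96 to 11.99 on the WT injured arrays, 11.68 to 12.03 on the Mapk9 KO control arrays and 11.69 to 12.09 on the Mapk9 KO injured arrays. None of 6 erythroid genes passed the threshold in either genotype, and their mean lay between 13.01 and 13.93 over the 12 arrays. No bone gene of 5 rose, 1 fell in WT and 2 fell in Mapk9 KO, and 1 of 5 endothelial genes rose in WT and none passed in Mapk9 KO. Of all genes, 7.15% fell in WT and 9.54% in Mapk9 KO. The marker counts are of the brightest probe of each gene, and some other probes, named after their values were seen, gave another call. At Mpo 3 of 4 probes rose in WT and 2 in Mapk9 KO, and at Lyz2 1 of 2 rose in each genotype. At Bglap 1 of 3 fell in each genotype, at Col11a1 1 of 3 fell in WT, and at Comp 1 of 2 rose in Mapk9 KO.

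**Figure D2:**
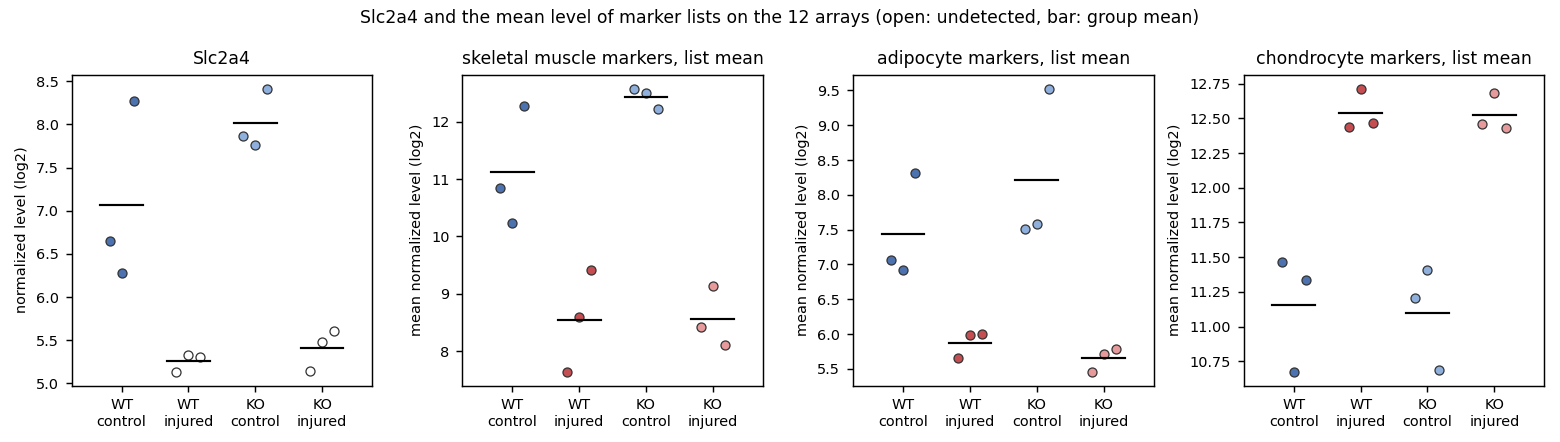
Log2 level of Slc2a4 and mean log2 level of the skeletal muscle, adipocyte and chondrocyte marker lists (vertical axes, each with its own range) on the 3 arrays of each group, with group means as bars and undetected values of Slc2a4 as open points. The muscle mean lies at 10.24 to 12.58 on the control arrays and at 7.64 to 9.41 on the injured arrays, while the chondrocyte mean lies higher on the injured arrays.

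Slc16a3 encodes MCT4, which exports lactate from cells with high glycolytic rates, and Slc16a1 encodes MCT1, which carries lactate in either direction. Of 2 Slc16a3 probes tested, one rose and the other did not pass the threshold. Both are shown because they read stretches of the same transcript, at bases 1814 and 2333, and gave different results.
Slc16a3 probe at base 1814: caaggaagccccatagttatcagccaccta
Slc16a3 probe at base 2333: gccacagcattcatacagcaggaagaaagg
Slc16a3 promoter (GRCm38.p6, chr11:120948817-120949066, plus strand): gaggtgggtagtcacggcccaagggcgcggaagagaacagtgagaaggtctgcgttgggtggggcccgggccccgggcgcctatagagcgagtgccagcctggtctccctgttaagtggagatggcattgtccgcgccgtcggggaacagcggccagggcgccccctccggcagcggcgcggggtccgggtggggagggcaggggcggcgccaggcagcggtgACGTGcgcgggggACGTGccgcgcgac
In this promoter ACGTG begins 27 and 14 bases before the start. At base 1814 the WT control arrays had 4.45, 4.82 and 5.79 and the WT injured arrays 6.24, 7.04 and 7.14. The Mapk9 KO control arrays had 5.27, 4.94 and 4.201 and the Mapk9 KO injured arrays 7.28, 6.80 and 7.39. This probe was detected on all 6 injured arrays and on none of the control arrays. The rise was at least 1.94-fold in WT (limma adjusted p = 0.00529) and at least 2.33-fold in Mapk9 KO (limma adjusted p = 7.53e-05), so in WT the fitted change passed the fold limit and the bound did not. Under quantile normalization without background correction the log2 change was 0.68 in WT and 0.88 in Mapk9 KO, below the fold limit, and the methods' t-test gave an adjusted p of 0.0991 in WT.

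At base 2333 Slc16a3 stayed near the detection limit on every array. The WT control arrays had 5.50, 6.05 and 6.01 and the WT injured arrays 5.83, 5.85 and 5.54. For Mapk9 KO the control arrays had 6.12, 6.25 and 5.80 and the injured arrays 6.00, 6.09 and 6.05. The groups overlapped in both genotypes, and 7 of the 12 arrays were detected. The log2 difference was -0.11 in WT (95% interval -0.60 to 0.38, limma adjusted p = 0.762) and -0.01 in Mapk9 KO (95% interval -0.41 to 0.38, limma adjusted p = 0.965). The remaining Slc16a3 probe gave signals of 96.2 to 148 before normalization and the Slc16a1 probe 105 to 157, undetected on all 12 arrays, so neither has a measured level here.

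Hk2 encodes the hexokinase that is inducible in muscle, fat and tumour cells, and Hk1 the form present in most cells. Hk2 rose in both genotypes.
Hk2 probe: ctcatctcatatccctgggcactcggtcta
Hk2 promoter (GRCm38.p6, chr6:82774455-82774704, minus strand): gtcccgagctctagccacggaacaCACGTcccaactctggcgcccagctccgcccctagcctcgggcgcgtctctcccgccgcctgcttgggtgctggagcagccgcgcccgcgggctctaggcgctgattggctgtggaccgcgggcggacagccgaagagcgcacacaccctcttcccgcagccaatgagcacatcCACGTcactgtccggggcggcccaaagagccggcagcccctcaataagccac
This promoter holds ACGTG on the opposite strand, 226 and 52 bases before the start. The WT control arrays had 10.89, 10.90 and 11.30 and the WT injured arrays 13.12, 13.23 and 12.68. The Mapk9 KO control arrays had 11.27, 11.32 and 11.26 and the Mapk9 KO injured arrays 13.07, 13.11 and 12.83. The injured arrays stood apart from the control arrays in both genotypes, and replicate 3 was the lowest injured array in each. The rise was 3.95-fold in WT (log2 change 1.98, standard error 0.23, limma adjusted p = 0.000229). In Mapk9 KO it was 3.30-fold (log2 change 1.72, standard error 0.17, limma adjusted p = 2.14e-05).

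Hk1 passed the threshold in Mapk9 KO and not in WT, and the difference between the genotypes itself did not pass.
Hk1 probe: catccacacttctccagaatcatgcaccaa
The WT control arrays had 6.85, 5.40 and 6.76, of which the second was undetected, and the WT injured arrays 6.92, 6.31 and 7.13. In Mapk9 KO the control arrays had 5.24, 5.85 and 6.49, of which the first was undetected, and the injured arrays 7.22, 7.14 and 7.78. The groups overlapped in WT and were separate in Mapk9 KO. The log2 change was 0.45 in WT (95% interval -0.39 to 1.29, limma adjusted p = 0.425) and 1.53 in Mapk9 KO (standard error 0.30, limma adjusted p = 0.00230). The difference of the 2 changes was 1.07 (95% interval -0.10 to 2.24, limma adjusted p = 0.540). The Mapk9 KO call was lost under quantile normalization without background correction, where the log2 change of 0.72 was below the fold limit, and with the methods' t-test (adjusted p = 0.0655).

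Pfkfb3 and Pfkfb4 encode enzymes that make and break down fructose 2,6-bisphosphate, Pfkfb3 with the stronger kinase activity. Neither passed the threshold. Pfkfb4 was detected on every array.
Pfkfb4 probe: ggttcaggggttcacaggcggactgcctac
It was measured at 10.35, 10.62 and 10.27 on the WT control arrays and at 11.34, 11.23 and 10.81 on the WT injured arrays. The Mapk9 KO control arrays gave 10.39, 10.56 and 10.27 and the Mapk9 KO injured arrays 11.10, 11.41 and 10.70. The injured arrays were separate from the control arrays in both genotypes, by a small margin. The log2 change was 0.71 in WT (standard error 0.22, limma adjusted p = 0.0361) and 0.66 in Mapk9 KO (standard error 0.21, limma adjusted p = 0.0287), below the fold limit. Without that limit, or with a limit of 1.5-fold, Pfkfb4 passed in both genotypes. The 250 bases before its start hold GCGTG 117 bases upstream.

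Pfkfb3 lay near the detection limit.
Pfkfb3 probe: catgtgcacgggggttcacacatgtagggg
The WT control arrays had 5.34, 5.58 and 5.66, all undetected, and the WT injured arrays 6.10, 5.90 and 7.08, all detected. In Mapk9 KO the control arrays had 5.14, 6.01 and 5.51 and the injured arrays 6.69, 5.92 and 5.77, with 1 and 2 of 3 detected. The groups were separate in WT and overlapped in Mapk9 KO. The injured level in WT was at least 1.43-fold that of the controls (limma adjusted p = 0.0660), and the log2 change in Mapk9 KO was 0.57 (standard error 0.28, limma adjusted p = 0.136). Without WT injured replicate 2 the fitted WT change passed (adjusted p = 0.0462), but the controls were undetected and the bound was 1.67-fold, below the fold limit. RefSeq lists 2 starts for Pfkfb3, and the stretch before each holds ACGTG.

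Gys1 encodes the glycogen synthase of muscle and most other tissues outside the liver, and it did not pass the threshold in either genotype.
Gys1 probe: atgaggaatttgtccgcggctgtcaccttg
The WT control arrays had 4.83, 3.92 and 6.18 and the WT injured arrays 6.20, 5.78 and 5.80, with 1 of 3 detected in each group. For Mapk9 KO the control arrays had 5.50, 5.63 and 5.94 and the injured arrays 6.81, 5.95 and 6.78, with 1 and 3 of 3 detected. WT control replicate 3, the array with the highest muscle and adipocyte means among the WT controls, stood above 2 of the 3 WT injured arrays. The log2 change was 0.95 in WT (standard error 0.46, limma adjusted p = 0.161) and 0.82 in Mapk9 KO (standard error 0.25, limma adjusted p = 0.0229), the latter below the fold limit. Without WT control replicate 3 the fitted WT change passed (adjusted p = 0.00607), but the 2 controls left were undetected and the bound was 1.13-fold. Without KO injured replicate 2 the change in Mapk9 KO was 1.11 and passed (adjusted p = 0.00279). The second Gys1 probe gave signals of 97.1 to 157 and was undetected on all 12 arrays.

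The promoter table held 10 stretches of 250 bases for 8 of the 10 genes. ACGTG or GCGTG was present in 8 of the 10 stretches, and in 38.6% of all 32851 stretches of that length in the table. ACGTG alone was in 6 (16.6% of all) and GCGTG in 5 (28.2% of all). CACGTG, the E-box, which contains ACGTG, was in 2 (6.02% of all), at Slc16a1 and at the second start of Pfkfb3. The AP-1 motif TGACTCA or TGAGTCA was in none (4.46% of all). The stretches of Gys1 and of the first start of Hk1 held no such core, while that of the second start of Hk1 held GCGTG. These matches are of letters only, and binding was not measured.

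**Figure D3:**
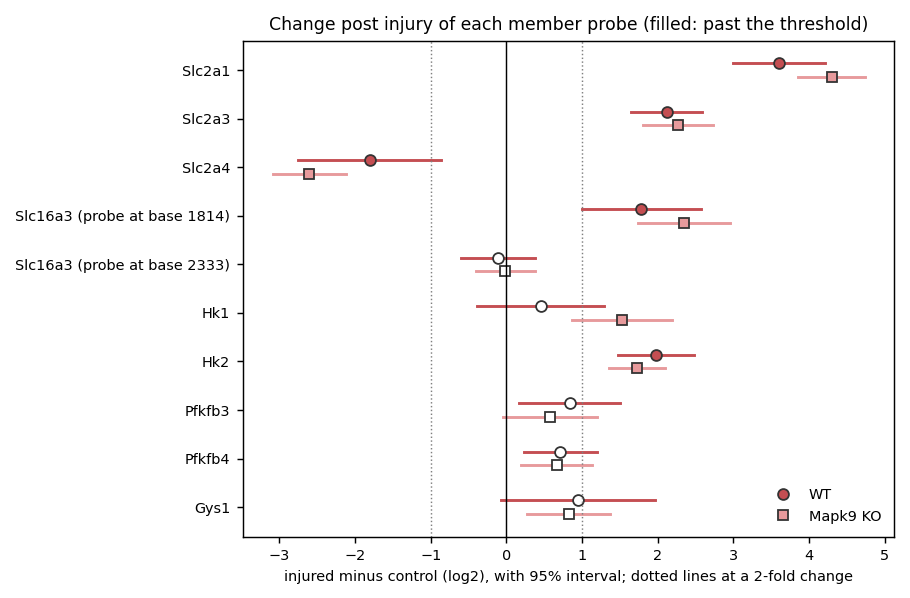
Log2 difference between injured and control arrays (horizontal axis) of the 10 probes tested, with 95% intervals, in WT (circles) and Mapk9 KO (squares). Filled symbols passed the threshold and dotted lines mark a 2-fold change, and the values of Slc2a4, of the Slc16a3 probe at base 1814 and of Pfkfb3 in WT are fitted against a group undetected throughout. Slc2a1 lies farthest to the right, at 3.60 in WT and 4.30 in Mapk9 KO, and Slc2a4 is the only probe past the threshold on the left.

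The comparison of genotypes addressed whether the loss of Mapk9 altered the genes before injury or altered their change post injury. The Mapk9 probe at base 4211 of its transcript gave 10.50 to 10.90 on the WT control arrays and 9.14 to 9.28 on the Mapk9 KO control arrays (log2 difference -1.57, standard error 0.21, limma adjusted p = 0.0151). On the injured arrays this probe gave 10.05 to 10.57 in WT and 8.69 to 8.78 in Mapk9 KO. A second probe, at base 900, was detected on all 3 WT control arrays and 1 of 3 WT injured arrays, and on none of the 6 Mapk9 KO arrays. Both probes were lower on the arrays labelled Mapk9 KO, and whether either lies in the deleted part is not given.

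In control hips, none of the 10 probes differed between the genotypes past the threshold by limma, where 0.119% of all probes did, and 1 of the 10, Slc2a1, had an unadjusted p under 0.05, as did 1356 of all 21004 probes. Slc2a1 was lower in Mapk9 KO by 0.62 on the log2 scale, with a 95% interval of the difference from -1.23 to -0.0047 (limma adjusted p = 0.766). Slc2a4 was higher by 0.95 (95% interval -0.02 to 1.91, limma adjusted p = 0.787). Without WT control replicate 3 the Slc2a4 difference was 1.55 and passed (adjusted p = 0.0120), and the probes called among all rose from 25 to 412. The muscle marker mean of the other 2 WT control arrays, 10.84 and 10.24, was below that of the Mapk9 KO control arrays, and its part in this difference was not tested. At Hk2, the difference was 0.25 (95% interval -0.20 to 0.71), and at Slc2a3 -0.18 (95% interval -0.70 to 0.34).

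The change post injury did not differ between the genotypes past the threshold at any of the 10 probes, and 0.00% of all probes passed this test by limma. Unadjusted, 0 of the 10 and 2088 of all probes had p under 0.05. The difference, Mapk9 KO minus WT, was 0.70 at Slc2a1 (95% interval -0.05 to 1.45), 0.15 at Slc2a3 (95% interval -0.47 to 0.77) and -0.26 at Hk2 (95% interval -0.83 to 0.31). At Slc2a4, undetected on all injured arrays, and at the Slc16a3 probe at base 1814, undetected on all control arrays, the difference had no measured size. The intervals stayed within a 2-fold difference at Slc2a3, Hk2, Pfkfb4 and the Slc16a3 probe at base 2333, and reached beyond it, as fitted, at the other 6 probes, where a like change in both genotypes was therefore not shown. With the replicate number as a block, 112 of all probes passed and none of the 10. Without WT control replicate 3, 242 of all probes passed and again none of the 10.

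Around the 10 genes, other genes of glucose use were read by their brightest probe. Of all genes so read, 7.50% rose and 7.15% fell in WT, and 8.9996% rose and 9.54% fell in Mapk9 KO. The list of glycolytic enzymes held 18 genes with a probe in the table, of which 8 rose and 3 fell in WT and 7 rose and 4 fell in Mapk9 KO. Its median log2 change was 0.82 in WT and 0.56 in Mapk9 KO, where that of all genes so read was -0.018 and -0.036. Of the 4 largest fitted changes in WT, the first was at Ldhc, the testis form of lactate dehydrogenase, which no control array detected and whose rise was at least 47.4-fold in WT and at least 52.1-fold in Mapk9 KO. Pgam2 and Eno3, the muscle forms of phosphoglycerate mutase and enolase, fell, with log2 changes of -2.91 and -2.84 in WT (limma adjusted p = 0.00848 and 0.00388) and of -4.50 and -4.56 in Mapk9 KO. Pfkp, the platelet form of phosphofructokinase, rose by 2.53 in WT (limma adjusted p = 0.00151) and 3.26 in Mapk9 KO. The falls at Pgam2 and Eno3 stood beside those of the muscle markers, of which 12 of 15 fell in WT and 15 in Mapk9 KO, and the part of the latter was not tested.

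Of other hexose transporters, 4 of 11 listed genes were in the table and 1 rose in each genotype, where 7.50% of all genes rose in WT and 8.9996% in Mapk9 KO. It was Slc2a6, a transporter of lysosomes, which rose by 2.22 in WT (limma adjusted p = 0.000131) and 1.86 in Mapk9 KO. Of other monocarboxylate transporters and their chaperones, 5 of 10 were in the table. Bsg, which encodes basigin, the chaperone that brings MCT1 and MCT4 to the surface, was likewise undetected on all control arrays and its rise was at least 2.62-fold in WT and at least 4.995-fold in Mapk9 KO. In Mapk9 KO Slc16a4, chosen after its value was seen, rose by 1.10 as well. The other 3 transporter genes and 4 of the 5 monocarboxylate genes did not pass in WT, and the list medians were 0.0031 and -0.21 in WT and 0.22 and 0.012 in Mapk9 KO. Of other glucose-phosphorylating enzymes, 2 rose in both genotypes. These were Adpgk, an ADP-dependent enzyme, by 2.30 in WT and 2.20 in Mapk9 KO, and Hk3, the hexokinase of white blood cells, by 1.63 and 1.64.

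The list of fructose bisphosphate control held 4 genes with a probe in the table, of which Tigar, named after its value was seen, was undetected on all 12 arrays. The median log2 change of the other 3 was -0.40 in WT and -0.65 in Mapk9 KO. In WT, Pfkfb2 fell by 1.24 on the log2 scale (limma adjusted p = 0.00158) and Fbp1, a gluconeogenic fructose bisphosphatase, rose at least 1.76-fold from undetected controls. At Fbp1 the fitted change passed the fold limit and the bound did not. In Mapk9 KO none of the 4 rose and 1 fell, the muscle form Fbp2, named after its value was seen, with a log2 change of -2.73 against -0.40 in WT (limma adjusted p = 0.731). Glycogen synthesis and breakdown held 18 genes with a probe in the table, of which 2 rose and 3 fell in WT and 3 rose and 5 fell in Mapk9 KO, where 7.50% and 7.15% of all genes did in WT and 8.9996% and 9.54% in Mapk9 KO. The medians of the 17 genes detected on some array were 0.30 in WT and 0.051 in Mapk9 KO. The genes named for their fitted change in WT were, in no order, Phkg1 and Pygm, the muscle forms of a phosphorylase kinase subunit and of glycogen phosphorylase, Pgm5, and Ppp1r3b, a glycogen-targeting subunit of protein phosphatase 1. Phkg1 fell at least 3.70-fold in WT and at least 9.68-fold in Mapk9 KO, Pygm had log2 changes of -2.82 and -4.27, Pgm5 fell at least 1.74-fold and at least 2.43-fold, and Ppp1r3b rose by 2.11 and 2.14. At Pgm5 in WT the fitted change passed the fold limit and the bound did not. Phkg1 and Pgm5 were undetected on all WT injured arrays and have no rank, and the other rise in WT, at Pygl, named after its value was seen, was 1.08. One of the rises in Mapk9 KO, at Epm2a, named after its value was seen, was at a probe undetected on all 12 arrays. Beside the falls of Phkg1 and Pygm in both genotypes and of Fbp2 in Mapk9 KO, 12 of the 15 muscle markers fell in WT and 15 in Mapk9 KO, and their part was not tested.

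Of 10 measured genes of transporter trafficking and uptake control, 1 rose and 1 fell in WT, near the 7.50% and 7.15% of all genes, and the median was -0.19 in WT and 0.0091 in Mapk9 KO. Irs2, an insulin receptor substrate, rose by 1.33 (limma adjusted p = 0.00168), and Prkaa2, the AMPK catalytic subunit abundant in muscle, fell at least 3.21-fold, beside the fall of the muscle markers, whose part was not tested. In Mapk9 KO none rose and Prkaa2 fell by 2.58 on the log2 scale, while Irs2 stood at 0.95, below the fold limit. By another probe than the brightest, Tbc1d1 rose in both genotypes and Gpi1, Pkm, Pygl and Phka2 rose in Mapk9 KO, all named after their values were seen. Across the 7 lists, no gene passed the threshold for the difference between genotypes in control hips or for the difference in the change post injury. This holds for the main fits, which had no block, and the lists were not read with the replicate number as a block.

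**Figure D4:**
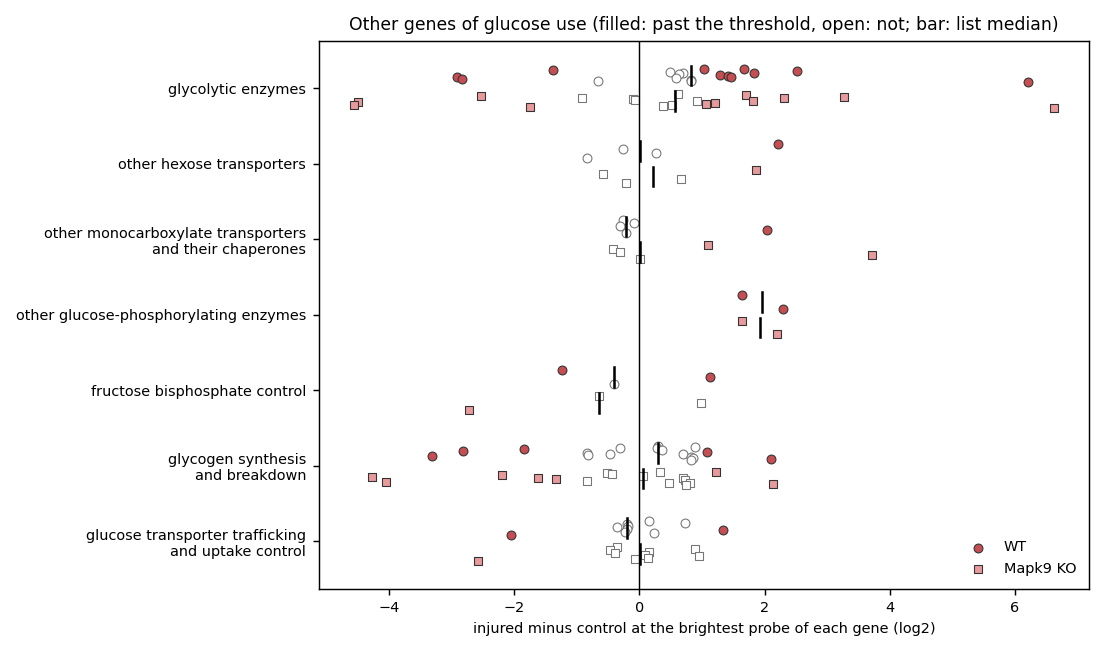
Log2 difference between injured and control arrays (horizontal axis) at the brightest probe of each gene detected on at least 1 array, in 7 lists of glucose use (vertical axis), in WT (circles) and Mapk9 KO (squares). Filled symbols passed the threshold, open symbols did not, and bars are medians over the genes shown. Glycolytic enzymes show both rises, up to 6.21 at Ldhc in WT as fitted, and falls, down to -2.91 at Pgam2 in WT.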

How the data were processed

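The members and lists were chosen with earlier results of these data known. The authors deposited bead signal intensities of 45281 probes with a detection p-value each, and log2 values of 21004 probes, made from those intensities by a correction with negative control probes and the vsn package. Versions and the genome build of the probe positions are not given in the sources used here. Between 16930 and 18969 probes were detected per array, and the number of arrays limits the precision. The deposited log2 values were tested with limma 3.58.1 (lmFit and eBayes, R 4.3.3) over all 21004 probes with Benjamini-Hochberg adjustment. The injury effects used the 6 arrays of each genotype, the genotype effect the 6 control arrays, and the interaction, called by adjusted p alone, all 12. An exact permutation test of 3 against 3 cannot go below 0.1. Every member probe, Mapk9 and, of each pathway list, at most the 4 called genes with the largest WT change were named, plus a few genes that the text gives as named after their values were seen. Samples of the same replicate number in different groups deviated together (r of 0.153 to 0.390 over 18 pairs, against -0.289 to 0.0825 over 36 others). The main fits did not use this number, which entered as a block only in an alternative. With that block Pfkfb3 in WT had a limma adjusted p of 0.0383, and its fitted log2 change of 0.83 stayed below the fold limit. Alternatives were other normalizations, filters, blocks, fold limits, the methods' t-test and each array left out. The fits were tested on simulated data. Promoters were RefSeq sequences (GRCm38.p6). A gene of the pathway lists is not reported here.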

Additional observations from a re-analysis of the deposited data

How the results depend on the processing

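The 5 calls in WT were 3 with quantile normalization without background correction and 3 with the methods' t-test after Benjamini-Hochberg adjustment, which both lost Slc2a4 and the Slc16a3 probe at base 1814. With each array left out in turn they were 5 to 6. In Mapk9 KO the 6 calls were 4 with quantile normalization and 5 with the t-test. The genotype calls were 0 to 1 with an array left out. Over all probes, the WT calls (1586 up, 1500 down) were 689 and 451 with quantile normalization, 984 and 640 with the t-test, and 2656 and 2663 without a fold limit, and those in Mapk9 KO (2015 up, 1919 down) were 929 and 827, 1709 and 1641, and 3987 and 4058. With array medians subtracted the WT split was 1721 up and 1358 down. The replicate block gave 112 interaction calls over all probes (102 up, 10 down) and changed no member call. Without WT control replicate 3, 412 probes passed for genotype and 242 for the interaction.

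Some differences changed sign between settings without passing a threshold, and the cause was not tested. Not all of them were near 0 in the main fit, where Hk1 in WT had 0.45. For genotype, Pfkfb4 was 0.025 with array medians subtracted and 0.028 with the label code number as a block, where Pfkfb3 was -0.11. For the interaction, Pfkfb4 and Gys1 were 0.039 and 0.25 with neqc (on the probes of the table or of the array) and 0.037 and 0.071 with quantile normalization. With an array left out, the log2 difference ran from -0.017 to 0.71 for Hk1 in WT and from -0.14 to 0.083 for the Slc16a3 probe at base 2333 in Mapk9 KO. For genotype it ran from -0.20 to 0.23 at Pfkfb3, -0.081 to 0.10 at Pfkfb4 and, as fitted, -0.50 to 0.17 at the Slc16a3 probe at base 1814, which was undetected on all 6 control arrays, so that its difference has no measured size. For the interaction it ran from -0.22 to 0.13 at Pfkfb4, -0.73 to 0.40 at Gys1, -0.031 to 0.27 at the Slc16a3 probe at base 2333 and -0.54 to 0.10 at Pfkfb3. The Slc16a3 probes, Pfkfb3, Gys1, Hk1 and Slc2a4 were undetected on some arrays, where their levels were not above background. Slc2a1, Slc2a3, Hk2 and Pfkfb4 were detected on all 12.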
